A study of Mus musculus with 3 samples.

Results

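The genes described here are 34 genes of glucose breakdown and of the response to low oxygen, out of 32245 distinct gene symbols in the count tables. They were chosen by symbol alone, and each symbol was found. Aldoa is listed under a pair of identifiers, of which ENSMUSG00000030695 carried nearly all of its counts and is the one reported; the other, ENSMUSG00000114515, had at most 3 UMIs in any class of a library. The set holds the glucose transporters Slc2a1 and Slc2a3, the enzymes that turn glucose into lactate (Hk1, Hk2, Gpi1, Pfkl, Pfkm, Pfkp, Aldoa, Tpi1, Gapdh, Pgk1, Pgam1, Eno1, Pkm and Ldha), the regulators Pfkfb3, Pfkfb4 and Pdk1, and the lactate exporter Slc16a3. It also holds the hypoxia-inducible factors Hif1a and Epas1, the prolyl hydroxylases Egln1 and Egln3, and the hypoxia-responsive genes Vegfa, Adm, Bnip3, Bnip3l, Ndrg1, Ankrd37, Ddit4, Car9, Kdm3a and Mxi1.

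Glycolysis splits glucose into pyruvate in the cytosol, and lactate dehydrogenase turns pyruvate into lactate that monocarboxylate transporters carry out of the cell. The prolyl hydroxylases use oxygen to mark HIF-alpha proteins for destruction, so that when oxygen is low the proteins persist, enter the nucleus and raise the transcription of glycolytic enzymes, of angiogenic factors such as Vegfa and of some of the hydroxylases themselves. Tendon is a sparsely vascularised tissue whose resident fibroblasts, the tenocytes, lie between collagen fibres, while the epitenon is the thin cell layer that wraps the tendon. Messenger RNA levels of these genes say nothing of enzyme activity, of HIF protein or of oxygen, none of which was measured.

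Single-cell RNA-seq was carried out on flexor digitorum longus (FDL) tendons of C57BL/6J mice, with 3 libraries of 16 pooled tendons each and 1 library per group. The 6 M WT library came from Scx-Cre-; DTR F/+ mice and the 6 M DTR library from Scx-Cre+; DTR F/+ mice, in which Scleraxis-Cre switches on the diphtheria toxin receptor so that toxin (DT) removes Scleraxis-lineage cells; both received 5 daily DT injections, were harvested 3 months later, and are given an age of 3 M in the labels and 6 M in the study's methods. The 21 M B6 library came from aged C57/Bl6 mice without treatment, which lack the DTR F/+ allele and the DT that both young groups share. Digestion took 120 min for 6 M WT tendons and 90 min for the other groups, so age, allele, toxin and digestion cannot be told apart between 21 M B6 and 6 M WT, nor depletion and digestion between 6 M DTR and 6 M WT.

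The libraries held 12273 to 16099 barcodes, of which 4798 to 8357 were kept, with median depths of 12328 to 13008 UMIs (unique molecular identifiers, 1 per captured RNA molecule). Barcodes over the mitochondrial limit of 10% made up 27.6% of the 6 M WT library, 43.1% of 6 M DTR and 56.5% of 21 M B6, and 13 to 15 kept barcodes were shared between any pair of libraries. Cells were called tenocyte-like, epitenon-like and so on when they held UMIs of at least 3 markers of that class and of at least 2 more than of any other class; for brevity they are named tenocytes, epitenon cells, macrophages, T cells and endothelial cells. There were 5579 tenocytes from 6 M WT tendons, 2963 from 6 M DTR and 973 from 21 M B6. Their 10 tenocyte markers summed to 18420 to 22187 CPM (UMIs of a gene as a share of all UMIs of the summed cells, scaled to 1e6), against 1162 to 1772 CPM in epitenon cells and 96.3 to 179 CPM in macrophages. By Xist and Y-linked transcripts the pools differed in their mix of sexes: 6 M WT tenocytes were 61.5% female and 23.4% male, those of 6 M DTR 32.9% and 46.6%, and those of 21 M B6 37.8% and 34.3%, with the rest not assigned.

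The 250 bases before the RefSeq transcription start are shown for 5 genes on which the results within tenocytes turn, Egln3, Slc16a3 and Pfkp, which were higher, and Vegfa and Hk2, which were lower, in cells rich in Slurp1 and Serpinb7 transcripts. Capitals mark ACGTG or GCGTG, the core letters to which HIF binds, or their reverse complements. Positions are on GRCm38.p6: Egln3 at chr12:54203875-54204124 on the minus strand, Slc16a3 at chr11:120948817-120949066 on the plus strand, Pfkp at chr13:6648772-6649021 on the minus strand, Vegfa at chr17:46032378-46032627 on the minus strand and Hk2 at chr6:82774455-82774704 on the minus strand, each printed 5′ to 3′ along the gene.
Egln3: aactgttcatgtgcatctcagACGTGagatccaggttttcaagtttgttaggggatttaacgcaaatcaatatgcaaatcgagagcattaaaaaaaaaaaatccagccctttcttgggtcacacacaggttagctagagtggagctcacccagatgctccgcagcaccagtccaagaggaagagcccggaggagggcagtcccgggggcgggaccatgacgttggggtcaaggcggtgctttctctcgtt
Slc16a3: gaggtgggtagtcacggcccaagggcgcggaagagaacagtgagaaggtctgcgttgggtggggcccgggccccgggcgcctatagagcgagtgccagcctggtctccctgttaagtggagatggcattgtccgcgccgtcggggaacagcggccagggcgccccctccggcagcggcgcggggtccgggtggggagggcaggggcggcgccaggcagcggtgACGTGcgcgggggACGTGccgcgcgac
Pfkp: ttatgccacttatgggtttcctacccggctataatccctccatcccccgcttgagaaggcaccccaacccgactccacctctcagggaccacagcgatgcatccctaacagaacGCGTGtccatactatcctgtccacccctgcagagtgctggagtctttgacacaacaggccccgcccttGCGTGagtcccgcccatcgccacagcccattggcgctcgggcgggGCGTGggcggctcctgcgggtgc
Vegfa: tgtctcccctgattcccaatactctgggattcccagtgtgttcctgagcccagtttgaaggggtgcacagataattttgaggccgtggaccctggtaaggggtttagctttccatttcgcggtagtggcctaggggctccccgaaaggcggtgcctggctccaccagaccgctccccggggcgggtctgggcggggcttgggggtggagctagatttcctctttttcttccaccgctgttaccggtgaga
Hk2: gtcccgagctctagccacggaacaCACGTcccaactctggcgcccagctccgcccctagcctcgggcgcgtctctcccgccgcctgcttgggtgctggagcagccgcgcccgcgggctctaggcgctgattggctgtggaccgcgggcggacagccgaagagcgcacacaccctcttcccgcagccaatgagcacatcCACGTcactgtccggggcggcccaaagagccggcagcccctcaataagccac

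In these windows Egln3 held 1 match, 229 bases before its start, and Slc16a3 held 2, at 27 and 14 bases before the start. Pfkp held 3 and Hk2 held 2, while the Vegfa window of the start used here held none. Vegfa has 2 starts, and the window of the other start held at least 1 match. At least 1 of the motifs, searched on both strands, was present in 36 of 47 windows of the genes described (76.6%) and in 12679 of 32851 windows of all genes (38.6%). The set includes hypoxia-responsive genes by choice, and the windows compared were not matched for their share of G and C. A match is a description of the letters and not a site of binding. No window was given for Slc2a3, Epas1, Bnip3l and Ndrg1.

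The genes were first compared across cell classes, each with its own levels in the 3 libraries. The enzymes from aldolase to pyruvate kinase were present in every class, while regulators and hypoxia-responsive genes were spread unevenly: Epas1, Pfkfb3 and Ddit4 were carried at much higher levels by endothelial cells than by tenocytes, and Hk2 by tenocytes than by endothelial cells. Of 33 genes that passed the filter on low counts (all but Car9), 9 were higher and 2 lower in tenocytes than in epitenon cells at an edgeR adjusted p under 0.05, when 11.5% and 14.7% of all 14349 genes tested were. Against macrophages 12 were higher and 9 lower, when 30.3% and 28.3% of all genes were, so that both shares lay near the background. Against endothelial cells 6 were higher and 7 lower, when 21.9% and 19.0% of all genes were. These tests set sums of the same library against each other, with the 3 libraries as replicates although they are of 3 different groups.

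Glucose enters cells through the transporters. Slc2a1, the ubiquitous transporter, stood at 63.1 CPM in tenocytes of 6 M WT, at 45.9 CPM in those of 6 M DTR and at 67.0 CPM in those of 21 M B6. None of the 3 class comparisons called it. Slc2a3, a high-affinity transporter, was at 8.45, 10.8 and 12.2 CPM in tenocytes (the 6 M WT value before that of 6 M DTR, and 21 M B6 last, as in all lists of 3 values that follow) and at 3.65, 5.80 and 4.80 CPM in epitenon cells. That was a log2 fold change of 1.24 ± 0.35 (SE, 3 libraries; edgeR adjusted p = 0.0176), and T cells stood higher still, at 26.2, 67.2 and 38.3 CPM.

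Hexokinase traps glucose as glucose 6-phosphate. Hk2, the inducible form, was carried by tenocytes at 383, 309 and 642 CPM and by epitenon cells at 337, 276 and 608 CPM. Endothelial cells held 10.7, 6.37 and 25.1 CPM of Hk2, so that the tenocyte level was higher in every library, by a log2 fold change of 5.24 ± 0.30 (edgeR adjusted p = 8.79e-09). Of the 34 genes it was the only one with tenocytes as its highest class of 7 in all 3 libraries, but its lead over epitenon cells was as small as 1.06-fold, and the comparison of both classes did not call it. Hk1, the housekeeping form, ran the other way against endothelial cells: tenocytes held 27.9, 27.1 and 19.4 CPM and endothelial cells 64.4, 53.8 and 44.3 CPM (log2 fold change -0.90 ± 0.15, edgeR adjusted p = 0.00033). Tenocytes were also lower in Hk1 than macrophages (-0.77 ± 0.14, edgeR adjusted p = 0.00028). They were higher than epitenon cells, which held 21.1, 20.6 and 17.8 CPM (0.41 ± 0.14, edgeR adjusted p = 0.0432).

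The next steps are isomerase and phosphofructokinase, the committed step of the pathway. Gpi1, the isomerase, was lower in tenocytes than in each of the 3 classes: tenocytes stood at 64.1, 72.4 and 53.9 CPM, epitenon cells at 129, 134 and 118 CPM and macrophages at 212, 208 and 206 CPM. The levels of tenocytes, epitenon cells and macrophages did not overlap. Among the phosphofructokinase subunits, Pfkp was at 109, 72.8 and 81.1 CPM in tenocytes and was not called in any class comparison, although T cells led in all libraries with 156, 150 and 116 CPM. Pfkl, the liver-type subunit, was at 14.7, 16.0 and 8.09 CPM in tenocytes, above epitenon cells (log2 fold change 0.83 ± 0.17, edgeR adjusted p = 0.0025) and below endothelial cells (log2 fold change -1.16 ± 0.19, edgeR adjusted p = 0.00022). Pfkm, the muscle-type subunit, stayed at 8.13 CPM or lower in tenocytes and epitenon cells.

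Pfkfb3 makes fructose 2,6-bisphosphate, the strongest activator of phosphofructokinase, and is known for its part in the glycolysis of endothelial cells. Endothelial cells held 271, 159 and 315 CPM and tenocytes 19.3, 20.2 and 35.3 CPM, a log2 fold change of -3.12 ± 0.32 for tenocytes (edgeR adjusted p = 2.42e-06). Epitenon cells lay lower again, at 8.82, 8.605 and 11.6 CPM. Pfkfb4, a related enzyme, was below 6 CPM in tenocytes and epitenon cells and peaked in Schwann-like cells, at 27.0, 62.9 and 30.6 CPM from 55, 51 and 35 cells.

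The enzymes from aldolase to pyruvate kinase together made up 1553, 1660 and 1023 CPM of tenocytes and 2310, 2510 and 1708 CPM of macrophages. Each of these 7 enzymes was lower in tenocytes than in macrophages in all 3 libraries. Gapdh, Eno1, Pgam1, Aldoa and Pkm were called, and Tpi1 and Pgk1 were not. Gapdh, for example, was at 505, 566 and 335 CPM in tenocytes and at 883, 967 and 698 CPM in macrophages (log2 fold change -0.83 ± 0.13, edgeR adjusted p = 9.62e-05). In tenocytes Pkm stood at 358, 321 and 180 CPM, Eno1 at 124, 150 and 68.6 CPM and Aldoa at 261, 286 and 227 CPM. Tpi1 was at 104, 127 and 86.4 CPM, Pgk1 at 109, 113 and 62.4 CPM and Pgam1 at 91.8, 99.0 and 64.2 CPM, so that 21 M B6 was the lowest library for each of the 7. None of them passed the threshold between tenocytes and epitenon cells. Ldha, which turns pyruvate into lactate, went the other way: tenocytes held 474, 419 and 367 CPM, above epitenon cells with 298, 272 and 281 CPM (log2 fold change 0.66 ± 0.14, edgeR adjusted p = 0.0037) and above macrophages with 233, 273 and 186 CPM. Endothelial cells held 420, 354 and 387 CPM of Ldha, a comparison that did not call it, and T cells were its highest class in all 3 libraries. Pdk1, a kinase that inhibits pyruvate dehydrogenase, was at 8.67, 12.9 and 6.02 CPM in tenocytes. It was also higher there than in epitenon cells (0.95 ± 0.24 on the log2 scale, edgeR adjusted p = 0.00901).

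Lactate leaves through Slc16a3, the transporter of glycolytic cells. It stood at 14.9, 26.7 and 6.71 CPM in tenocytes, at 45.4, 50.1 and 24.5 CPM in macrophages and at 103, 45.1 and 69.6 CPM in mural cells of vessel walls. Tenocytes were lower than macrophages in each library (log2 fold change -1.32 ± 0.31, edgeR adjusted p = 0.0021).

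**Figure D1:**
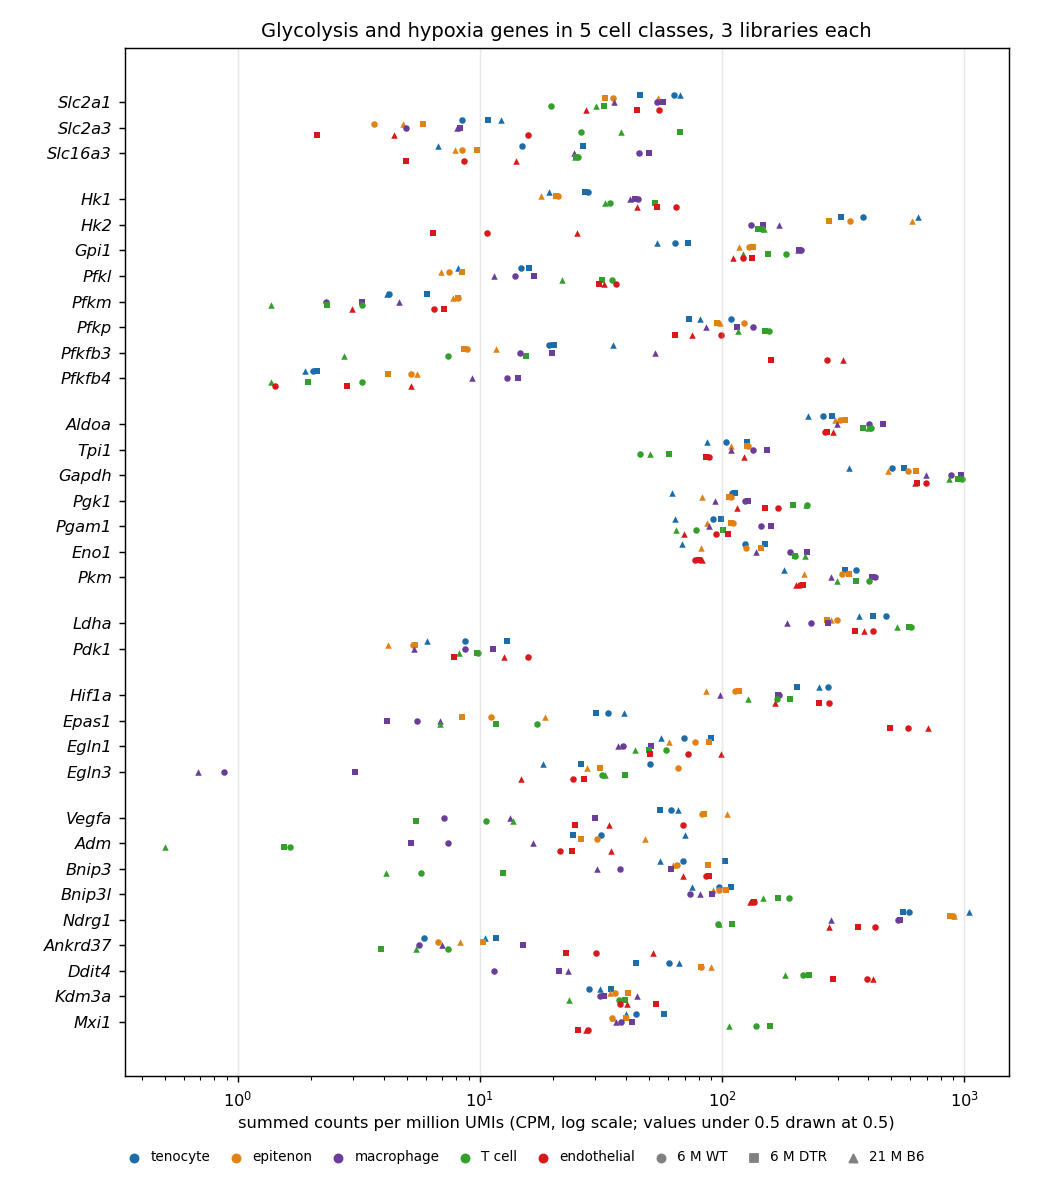
Level of each gene (CPM, log axis) in 5 cell classes, with 1 marker shape for each of the 3 libraries. Epas1, Pfkfb3 and Ddit4 lie far to the right in endothelial cells, where Epas1 reaches 494 to 709 CPM against 30.1 to 39.2 CPM in tenocytes, and Hk2 lies far to the left there.

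Oxygen sensing differed by class as well. Hif1a, the broadly expressed alpha subunit, stood at 275, 203 and 251 CPM in tenocytes and at 113, 117 and 85.7 CPM in epitenon cells, with no overlap (log2 fold change 1.34 ± 0.19, edgeR adjusted p = 0.00014). Epas1, the alpha subunit known from vessels, stood at 33.8, 30.1 and 39.2 CPM in tenocytes, at 11.1, 8.47 and 18.5 CPM in epitenon cells and at 586, 494 and 709 CPM in endothelial cells. Tenocytes thus lay between the other classes, above epitenon cells by 1.57 ± 0.19 on the log2 scale (edgeR adjusted p = 4.03e-05) and below endothelial cells by a log2 fold change of -3.88 ± 0.21 (edgeR adjusted p = 3.87e-09). Egln1, the main HIF hydroxylase, was at 69.6, 90.03 and 55.8 CPM in tenocytes and at 39.0, 50.7 and 37.2 CPM in macrophages. Egln3, a hydroxylase that HIF itself induces, was at 50.5, 26.1 and 18.2 CPM in tenocytes, at 65.6, 31.4 and 27.6 CPM in epitenon cells and at 0.878, 3.05 and 0.683 CPM in macrophages. It was higher in tenocytes than in macrophages (log2 fold change 4.14 ± 0.41, edgeR adjusted p = 8.11e-07) and was not called against epitenon cells. The highest class for Egln3 was epitenon cells in 6 M WT, but T cells in 6 M DTR and in 21 M B6.

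Hypoxia-responsive genes did not share a pattern. Vegfa, the vascular growth factor, was at 61.6, 55.3 and 65.6 CPM in tenocytes and at 82.3, 83.9 and 104 CPM in epitenon cells, and was low in macrophages, with 7.13, 30.0 and 13.3 CPM. Adm, the vasodilator peptide adrenomedullin, was at 31.8, 24.2 and 70.4 CPM in tenocytes and exceeded macrophages in each library (log2 fold change 2.19 ± 0.20, edgeR adjusted p = 5.23e-07). Ddit4, an inhibitor of mTORC1, was at 60.2, 44.1 and 66.5 CPM in tenocytes and at 396, 286 and 421 CPM in endothelial cells (log2 fold change -2.46 ± 0.22, edgeR adjusted p = 6.91e-07). Ankrd37 was likewise lower in tenocytes than in endothelial cells, at 5.89, 11.7 and 10.5 CPM against 30.0, 22.7 and 51.7 CPM. Ndrg1, a stress-responsive gene, reached 590, 556 and 1043 CPM in tenocytes and was called higher there than in macrophages and endothelial cells. Macrophages held 532, 544 and 281 CPM, so that the lead over them was 1.11- and 1.02-fold in the young libraries and 3.72-fold in 21 M B6. Epitenon cells held 897, 872 and 910 CPM, above tenocytes in both young libraries, and that comparison did not call it.

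The mitophagy receptors Bnip3 and Bnip3l stood at 68.8, 103 and 55.7 CPM and at 96.9, 109 and 74.9 CPM in tenocytes, and of the pair only Bnip3 was called against macrophages (log2 fold change 0.85 ± 0.15, edgeR adjusted p = 0.00025). Mxi1, an antagonist of Myc, was at 44.0, 57.6 and 39.9 CPM in tenocytes and was called higher there than in all 3 compared classes, yet T cells led in every library with 138, 157 and 107 CPM. Kdm3a, a histone demethylase, was at 28.3, 34.8 and 31.3 CPM in tenocytes and was not called in any of the 3 comparisons. Car9, a carbonic anhydrase much used as a hypoxia marker, had a level of at most 2.19 CPM, in macrophages, and in tenocytes it stood at 0.0666 and 0.0256 CPM in the young libraries, with no UMI in 21 M B6.

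Of other hypoxia genes, 10 of 44 tested were higher and 6 lower in tenocytes than in epitenon cells, among them Lox, a collagen crosslinking enzyme (log2 fold change 4.80 ± 0.32), Angptl4, an inhibitor of lipoprotein lipase (4.40 ± 0.50), and Plod2 (2.25 ± 0.15) and P4ha1 (1.23 ± 0.17), which hydroxylate collagen lysine and proline. The placental growth factor Pgf was lower, by a log2 fold change of -3.34 ± 0.32. Of other glycolysis genes 2 of 29 were higher and 5 lower, and of 8 pentose phosphate genes 1 was higher and 4 lower, with G6pdx, which opens that pathway, at -1.49 ± 0.15. In the class comparisons scaling mattered: with library totals in place of TMM scaling, 3 genes were higher and 10 lower in tenocytes than in endothelial cells, and 7 higher and 3 lower than in epitenon cells. Without the 6 M WT library 4 were higher and 1 lower than in epitenon cells, and 4 in place of 9 were lower than in macrophages.

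Tenocytes were then compared by the summed UMIs of Slurp1 and Serpinb7, genes outside the set that are carried by some tenocytes and some epitenon cells of these libraries. Tenocytes with no UMI of either numbered 3385, 2222 and 849, and those with 10 or more, called high, numbered 823, 236 and 37, or 14.8%, 7.96% and 3.80% of tenocytes. Any UMI of the pair was found in 39.3%, 25.01% and 12.7% of tenocytes, in 43.6%, 35.4% and 21.7% of epitenon cells, and in 6.76%, 4.19% and 2.80% of macrophages, which set a level of background. The pair is thus no trait of tenocytes alone, as 12.8%, 7.15% and 3.69% of epitenon cells were high as well. Close to the limit, 118, 49 and 3 tenocytes had 8 or 9 UMIs and 121, 30 and 5 had 10 or 11. High cells were deeper, with medians of 14236, 15108 and 13432 UMIs against 12409, 11890 and 10954 in cells with none, and CPM takes account of this only in the sums. Slurp1 and Serpinb7 were picked from cells of these same libraries, and Egln3 had led the same tenocytes in earlier work, so the difference in Egln3 was known when the bins were set and is given with no test, and Egln3 is left out of all counts of calls by bin; p-values of the other genes come from cells that served that choice.

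High tenocytes carried more RNA of Egln3, of the lactate exporter Slc16a3 and of several glycolytic enzymes, and less of Vegfa, Hk2, Slc2a3 and Hif1a. Of the 32 other genes that passed the filter, 8 were higher (Slc16a3, Pfkp, Eno1, Bnip3, Pkm, Gapdh, Egln1 and Gpi1) and 7 lower (Vegfa, Hk2, Slc2a3, Hif1a, Pfkfb3, Ndrg1 and Adm) at an edgeR adjusted p under 0.05, when 9.38% and 14.8% of 12244 genes tested were. The median log2 fold change of the 32 was 0.05, beside -0.03 for all genes tested. With library totals as the scale the median of all genes was 0.21 and the counts became 12 higher and 6 lower. Aldoa, Pgam1, Pgk1 and Tpi1 were added to the higher genes, and Adm was no longer called. The shares of all genes called on that scale were not computed. Without the 6 M WT library, which holds most of the high cells, Adm, Egln1, Gapdh, Gpi1, Ndrg1 and Pkm lost their call. Without the library as a block 2 higher and 1 lower gene were left. Adm and Gpi1 also lost their call with DESeq2, the stricter gate, the mitochondrial limit of 5% or the 6 M DTR library left out. With cells thinned to 5000 UMIs, the edgeR adjusted p was 0.105 for Adm and 0.0502 for Gpi1.

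Egln3, whose promoter is printed above, stood at 7.18 CPM in tenocytes with no UMI and at 191 CPM in high tenocytes of 6 M WT. In 6 M DTR it went from 6.73 to 127 CPM and in 21 M B6 from 7.60 to 162 CPM, a log2 fold change of 4.23 ± 0.13 over the 3 libraries. The levels with no UMI lay within 1 CPM of each other, and the high levels were 18.9- to 26.6-fold above them. High tenocytes held 62.4%, 47.1% and 40.3% of all Egln3 UMIs of tenocytes, from 16.5%, 9.69% and 4.50% of the tenocyte UMIs. Cells with at least 5000 UMIs were also thinned to 5000 UMIs each. Of such high tenocytes of 6 M WT, 40.5% had an Egln3 UMI. The exact 95% interval of 37.1 to 44.0% covers only the sampling of cells within that library. In the other libraries 37.3% and 54.1% of such high tenocytes had one. Among tenocytes with none of the pair the shares were 2.40%, 1.74% and 2.38%, and in macrophages 0.579%, 1.14% and 0.624%.

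Slc16a3 went from 6.11 to 43.4, from 18.6 to 70.7 and from 3.20 to 51.6 CPM, the last of these from 27 UMIs. No high level overlapped a level of the cells with none (log2 fold change 2.35 ± 0.23, edgeR adjusted p = 5.43e-05). The intermediate bins lay in between: in 6 M WT, tenocytes with 1 or 2 UMIs of the pair held 9.87 CPM and those with 3 to 9 held 25.8 CPM. Slc16a3, Bnip3, Eno1, Gapdh and Pkm climbed from bin to bin in all 3 libraries, which 3.45% of the genes tested did, and Hk2 declined in the same manner, which 1.65% did.

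The glycolytic enzymes that rose did so by smaller amounts. Pfkp went from 83.1 to 169, from 56.4 to 145 and from 70.7 to 199 CPM (log2 fold change 1.00 ± 0.12, edgeR adjusted p = 0.00021). Eno1, enolase, went from 96.1 to 205, from 133 to 221 and from 61.2 to 134 CPM (0.71 ± 0.11 on the log2 scale, edgeR adjusted p = 0.0013). For Pkm, pyruvate kinase, the log2 fold change was 0.63 ± 0.12 (edgeR adjusted p = 0.0044), for Gapdh 0.52 ± 0.13 (edgeR adjusted p = 0.0126) and for Gpi1 0.35 ± 0.11 (edgeR adjusted p = 0.0409). Tpi1, Pgam1, Aldoa and Pgk1, at 0.24, 0.23, 0.20 and 0.16, missed the threshold in the TMM-scaled fit. The 7 enzymes from aldolase to pyruvate kinase summed to 1302, 1501 and 971 CPM in cells with none and to 2229, 2366 and 1582 CPM in high cells.

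**Figure D2:**
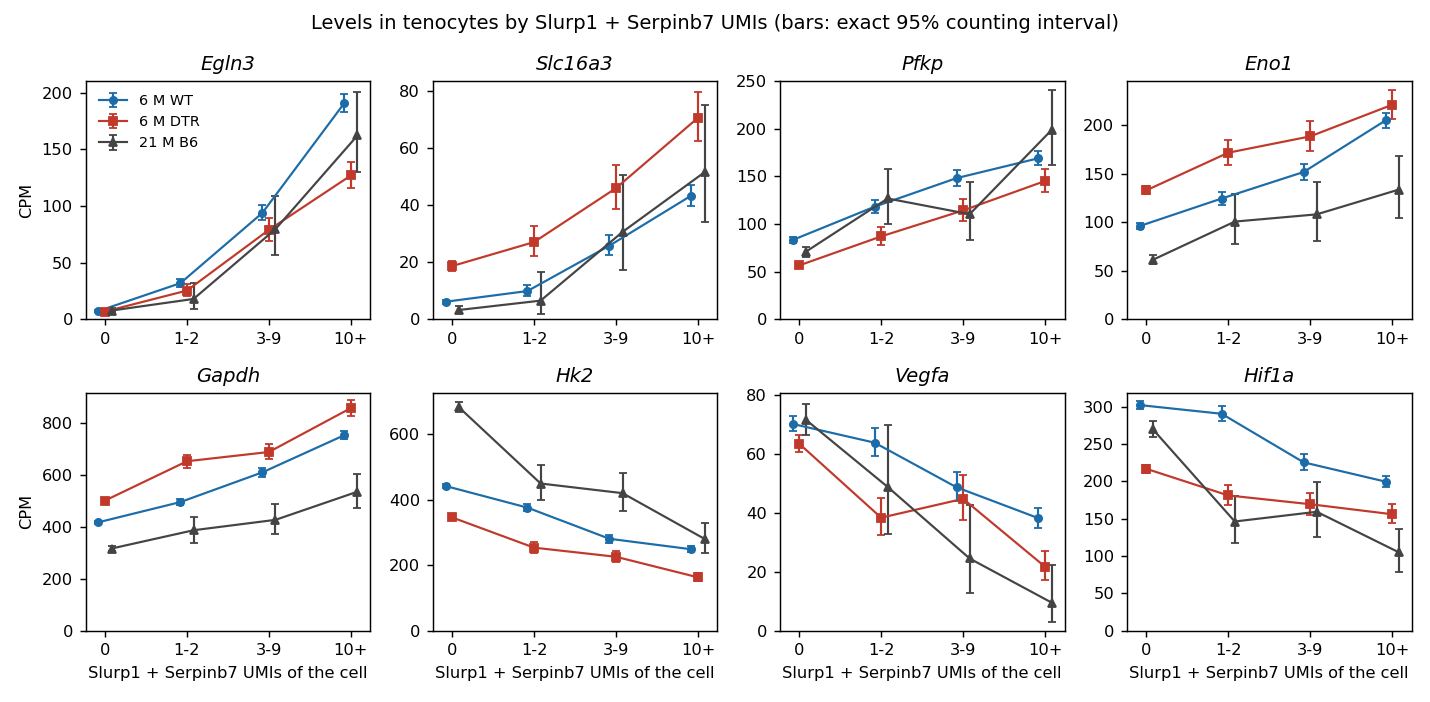
Level (CPM, linear axes that start at 0) of 8 genes in tenocytes grouped by the summed UMIs of Slurp1 and Serpinb7 (0, 1-2, 3-9 and 10 or more), with 1 line per library and exact 95% intervals for counting error. Egln3 and Slc16a3 climb in each library, Egln3 from about 7 CPM to 127 CPM or more, while Hk2 declines, and Vegfa and Hif1a are lowest in the last bin.

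Hk2, Slc2a3 and Pfkfb3 went down in the same cells, while the other transporter, hexokinase and Pfkfb gene were not called. Hk2 went from 442 to 249, from 346 to 163 and from 684 to 281 CPM (log2 fold change -1.33 ± 0.15, edgeR adjusted p = 0.00011). The 3 libraries thus differed in level and moved alike. Slc2a3 fell by 1.10 ± 0.24 on the log2 scale (edgeR adjusted p = 0.0066), from 10.1, 12.5 and 13.1 CPM to 6.87, 5.56 and 1.91 CPM. The Slc2a3 level in high cells of 21 M B6 came from very few UMIs. Its ratio to cells with none was 0.146, with an exact interval of 0.00366 to 0.826 for counting error. Pfkfb3 fell by 0.80 ± 0.16 on the log2 scale (edgeR adjusted p = 0.0052). Slc2a1 did not pass the test, with a log2 fold change of -0.22 ± 0.11, nor did Hk1, Pfkl, Pfkm, Pfkfb4 and Pdk1.

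Lactate dehydrogenase split by library. Ldha was at 517, 419 and 266 CPM in high cells and at 458, 415 and 380 CPM in cells with none, higher in 6 M WT and lower in 21 M B6. Its log2 fold change of -0.36 ± 0.17 did not pass the test (edgeR adjusted p = 0.157).

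On the oxygen-sensing side, Hif1a and the hydroxylases moved in opposite directions. Hif1a went from 302 to 200, from 217 to 156 and from 270 to 105 CPM (log2 fold change -1.01 ± 0.19, edgeR adjusted p = 0.0029), while Egln1 rose by 0.44 ± 0.11 (edgeR adjusted p = 0.0129), from 60.9, 84.0 and 50.9 to 95.03, 123 and 105 CPM. Epas1 was at -0.17 ± 0.13 and did not pass the test.

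Hypoxia-responsive genes moved both ways. Vegfa went from 70.1 to 38.1, from 63.4 to 21.7 and from 71.5 to 9.55 CPM, the last of these from 5 UMIs (log2 fold change -1.53 ± 0.20, edgeR adjusted p = 0.00037). Ndrg1 fell by 0.63 ± 0.13 (edgeR adjusted p = 0.0049). Adm fell by 0.45 ± 0.13 (edgeR adjusted p = 0.0249), from 29.9, 24.5 and 73.3 to 29.7, 18.5 and 61.1 CPM, so that in 6 M WT its level was almost unmoved. Bnip3, in contrast, rose by 0.70 ± 0.11 (edgeR adjusted p = 0.00093), from 51.5, 90.6 and 51.7 to 109, 156 and 105 CPM. Bnip3l, Ankrd37, Ddit4, Kdm3a and Mxi1 were not called, with log2 fold changes from -0.31 to 0.06.

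Other genes of these pathways were as mixed. Of 42 other hypoxia genes tested 8 rose and 5 fell, with a median log2 fold change of -0.10. P4ha2, a collagen prolyl hydroxylase (1.81 ± 0.13), Higd1a, a mitochondrial protein (1.15 ± 0.14), and Scd2, a fatty acid desaturase (0.65 ± 0.12), rose, while Angptl4 (-2.003 ± 0.25), Lox (-1.53 ± 0.23), the haem oxygenase Hmox1 (-1.44 ± 0.14) and P4ha1 (-0.88 ± 0.13) fell, all at edgeR adjusted p under 0.05. Of 25 other glycolysis genes 1 rose and 3 fell, among the latter the monocarboxylate transporter Slc16a1 (-1.35 ± 0.14), a relative of Slc16a3 that moved the other way. Of 8 pentose phosphate genes 3 rose, with Pgd at 1.05 ± 0.14 and the transaldolase Taldo1 at 0.49 ± 0.11, and none fell at the adjusted threshold.

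Other lists moved with the bins, and their part in the result was not tested. Of the 10 tenocyte markers 7 were lower in high tenocytes and none was higher, with Tnmd at a log2 fold change of -3.72, and their sum went from 21780, 23610 and 19327 CPM to 13998, 16193 and 11091 CPM. Of 9 epitenon markers tested 4 were higher and 1 lower, and their sum went from 183, 242 and 236 CPM to 649, 659 and 1072 CPM, below the 4149 to 4364 CPM of epitenon cells. Among tenocytes with UMIs of at most 2 epitenon markers Egln1 alone lost its call, and no call was added. The 8 macrophage markers summed to 23.3 to 29.6 CPM in high tenocytes and to 27.0 to 46.0 CPM in those with none. Of 12 immediate early genes 10 were lower, and of 10 heat shock genes 3 were higher and 1 lower. Of 5 mural markers tested 2, Cspg4 and Mustn1, were higher, by 1.18 and 1.44 on the log2 scale, and the other 3 were below 0 and not called, so that the median was -0.27. All 8 mural markers together summed to 231, 334 and 199 CPM in tenocytes with none and to 647, 877 and 724 CPM in high tenocytes, below the 10484 to 15104 CPM of mural cells.

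The same bins were set in epitenon cells, with 116, 65 and 85 high cells, a comparison added after the data were seen. High epitenon cells carried more of the exporter Slc16a3 and of all 7 enzymes from aldolase to pyruvate kinase, and less Adm, Hk2, Vegfa and Epas1. Of the 32 genes other than Egln3 12 were higher and 8 lower, when 17.2% and 21.1% of 11032 genes tested were. Called higher in both classes were Slc16a3, Pfkp, Eno1, Gapdh, Pkm, Bnip3 and Egln1, and lower in both were Hk2, Vegfa, Pfkfb3, Ndrg1 and Adm. Of these, Adm lost its call in tenocytes in several alternatives given above. Slc16a3 went from 1.93, 4.45 and 2.85 CPM to 41.7, 48.6 and 71.8 CPM (log2 fold change 3.94 ± 0.23, edgeR adjusted p = 1.31e-05). Egln3 went from 41.7, 24.6 and 24.0 CPM to 103, 41.4 and 40.3 CPM (0.72 ± 0.15 on the log2 scale). In both classes Egln3 and Slc16a3 were thus higher in the high bin, and their changes were of different size, a difference between the classes that was not tested.

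Eno1 rose by 1.03 ± 0.09 and Pkm by 1.09 ± 0.09 in high epitenon cells, from 94.5, 109 and 70.0 and from 229, 259 and 185 CPM (edgeR adjusted p = 9.43e-05 and 7.94e-05). Aldoa, Tpi1, Pgk1, Pgam1 and Pfkl, not called in tenocytes, were also higher here, with log2 fold changes from 0.36 to 0.81. Hk2 went from 466, 342 and 727 CPM to 114, 115 and 183 CPM (-2.14 ± 0.13, edgeR adjusted p = 1.67e-05) and Adm from 36.2, 29.8 and 54.2 CPM to 8.83, 11.9 and 6.81 CPM (-2.42 ± 0.27, edgeR adjusted p = 0.0003). Slc2a1, Ddit4 and Epas1 were also lower, with log2 fold changes of -0.72, -1.14 and -1.44. They missed the threshold in tenocytes, and the difference between the classes was not tested. Without the 6 M WT library 7 genes were called higher and 8 lower. Beside this, 11 of 12 immediate early genes and 7 of 10 heat shock genes were lower in high epitenon cells, and of the 10 epitenon markers 3 were higher and 7 lower. Of 8 tenocyte markers tested 4 were higher and 2 lower (median log2 fold change 0.59), with sums that went from 1448, 1054 and 1095 CPM to 2351, 1984 and 1099 CPM, and of 3 mural markers 2 were higher. The part of these markers in the result was not tested.

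**Figure D3:**
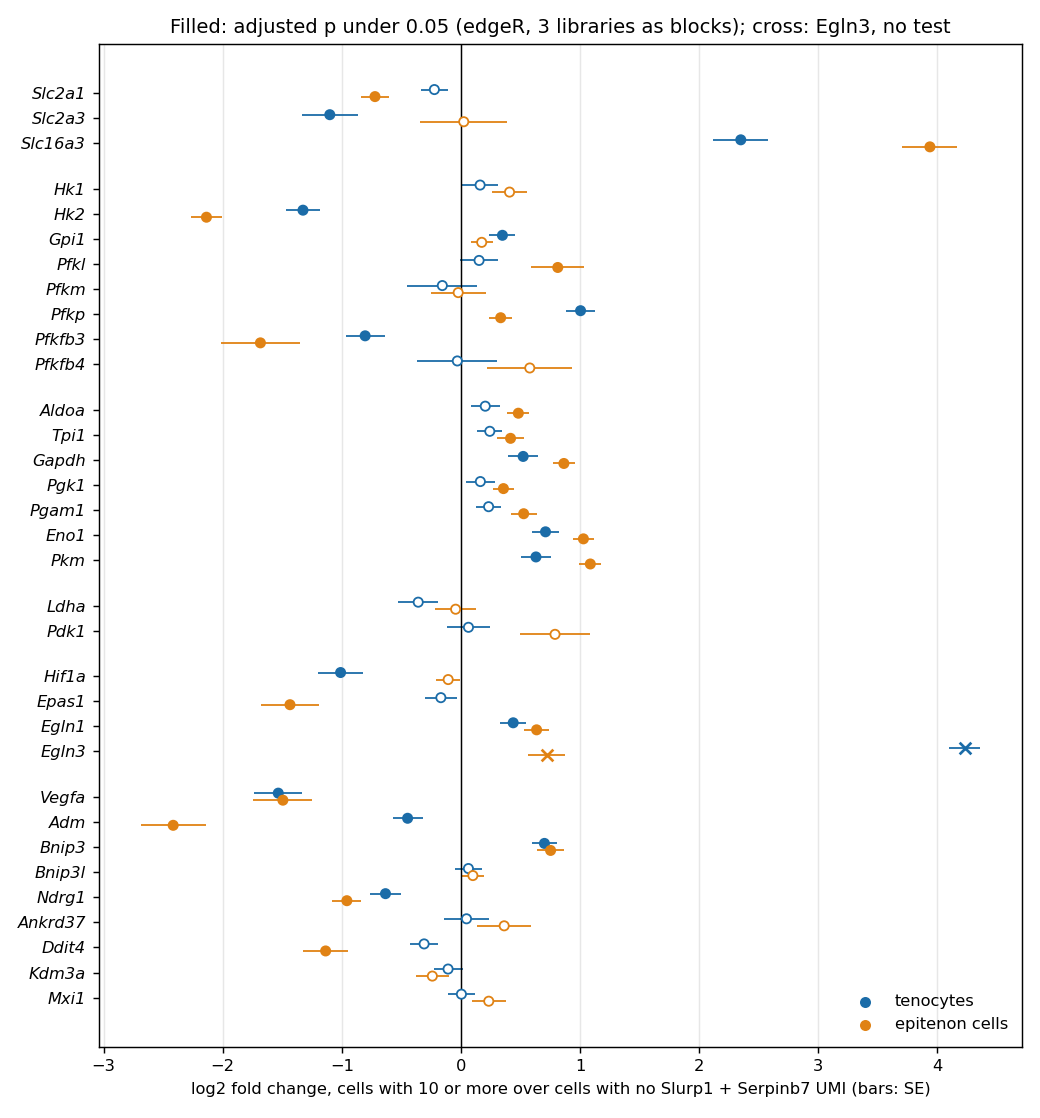
Log2 fold change (± SE) between cells with 10 or more UMIs of Slurp1 and Serpinb7 and cells with none, for each gene in tenocytes and in epitenon cells; filled points have an edgeR adjusted p under 0.05, and crosses mark Egln3, which was given no test. Egln3 (4.23) and Slc16a3 (2.35) lie farthest right in tenocytes, Slc16a3 (3.94) in epitenon cells, and Vegfa, Hk2, Pfkfb3, Ndrg1 and Adm lie left of 0 with filled points in both.

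The last question was how the genes differ between tenocytes of the 3 libraries. With 1 library per group no test of the groups exists, so ratios of CPM are given with exact 95% intervals that cover counting error only, and a gene was counted when its ratio was above 1.5 or below 1/1.5 and it reached 5 CPM in a library compared. Fewer cells of a kind and less RNA per cell cannot be told apart in such sums.

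In 6 M DTR tenocytes 2 genes were above the fold over 6 M WT, Ankrd37 (ratio 1.99, 1.74 to 2.27) and Slc16a3 (1.79, 1.64 to 1.95), and 2 below, Egln3 (0.518, 0.483 to 0.555) and Pfkp (0.666, 0.638 to 0.695). Of all 9441 genes that reached 5 CPM, 7.53% were above and 5.80% below. Bnip3 (1.49) and Pdk1 (1.49) lay just inside the limit. Among female cells neither Egln3 nor Pfkp was below the fold, with log2 ratios of -0.53 and -0.46, and Ddit4 was, while among male cells Egln3 (-1.31) and Pfkp (-0.73) both were. In cells with no UMI of Slurp1 and Serpinb7, 5 genes were above (Slc16a3 3.05, Ankrd37 2.14, Bnip3 1.76, Pfkm 1.57 and Pdk1 1.54) and none below, when 11.4% and 7.05% of all genes were. Bnip3 and Pdk1 were already close to the limit over all tenocytes, and Pfkm had low counts. Egln3 was at 6.73 against 7.18 CPM in the cells with no UMI. In the high bin Pfkp was likewise inside the fold (-0.22 on the log2 scale), while Egln3 was still below it. Adm, Ddit4, Hk2 and Vegfa were below it in that bin too, and Ankrd37 and Slc16a3 were above it. The share of all genes past the fold was not computed for the high bin. High tenocytes were 7.96% of the tenocytes in 6 M DTR and 14.8% in 6 M WT.

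In 21 M B6 tenocytes Pkm, Eno1, Pgk1 and Gapdh, enzymes of the payoff phase of glycolysis, were at lower levels than in 6 M WT, while Adm, Pfkfb3, Ankrd37, Ndrg1 and Hk2 were at higher levels. Those 5 genes were above the fold and 7 were below it, when 6.34% and 16.0% of all genes were. Adm stood at 70.4 against 31.8 CPM (ratio 2.22, 2.04 to 2.40), Pfkfb3 at 35.3 against 19.3 CPM (1.83), Ndrg1 at 1043 against 590 CPM (1.77) and Hk2 at 642 against 383 CPM (1.67). The genes below were Egln3 (0.360), Slc16a3 (0.449), Pkm (0.503, 0.481 to 0.526), Pfkl (0.549), Eno1 (0.552, 0.513 to 0.593), Pgk1 (0.570) and Gapdh (0.663, 0.641 to 0.685). With no maximum on genes per barcode, Egln3 and Gapdh were no longer below the fold, and the other genes below it stayed there. Among male cells Hk2 and Ndrg1 were no longer above the fold and Gapdh was no longer below it. Female cells kept all 5 above and all 7 below. The part of the mix of sexes in these ratios was not tested. Every one of the 7 enzymes from aldolase to pyruvate kinase had a ratio below 1, with a median log2 ratio of -0.59, beside -0.27 for all genes. Over the 31 genes of the set that reached 5 CPM the median was -0.26, near that of all genes. TMM scaling moves the log2 ratios of this comparison up by 0.24, which turns the direction of Aldoa, at -0.20 before scaling. It also brings Pgk1 and Gapdh inside the fold, at -0.58 and -0.36 after scaling. The count then reads 6 above and 5 below, with no share of all genes computed on that scale.

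Most of these ratios were on the same side in cells with no UMI of Slurp1 and Serpinb7. There Pkm (0.593), Eno1 (0.637), Pgk1 (0.638), Slc16a3 (0.524) and Pfkl (0.509) were below the fold, and Adm (2.45), Ankrd37 (1.93), Pfkfb3 (1.78), Ndrg1 (1.71) and Hk2 (1.55) above it, when 13.5% of all genes were below and 6.73% above. Gapdh (0.758) lay inside the fold. In the 37 high cells of 21 M B6, 4 of the 7 genes below the fold over all tenocytes were below it (Pkm, Pfkl, Eno1 and Pgk1) and 2 of the 5 above it were above (Adm and Ndrg1). Hif1a, Ldha, Slc2a3 and Vegfa, inside the fold over all tenocytes, were below it in these high cells. The levels of Slc2a3 and Vegfa there rest on very few UMIs. No share of all genes was computed for these high cells. Slc16a3 turned direction there, at 51.6 against 43.4 CPM (ratio 1.19, 0.776 to 1.75). In cells with no UMI Egln3 was at 7.60 against 7.18 CPM, a ratio of 1.06 beside 0.360 over all tenocytes, of which high cells were 3.80% in 21 M B6 and 14.8% in 6 M WT. Against 6 M DTR 5 genes were above in 21 M B6 and 10 below, when 8.37% and 27.1% of all genes were, with Adm at 2.91 and Slc16a3 at 0.251. TMM scaling moves the log2 ratios of this comparison up by 0.33 and turns the count to 8 above and 4 below. The split of this comparison thus depends on the scale, and the share of all genes after scaling was not computed.

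**Figure D4:**
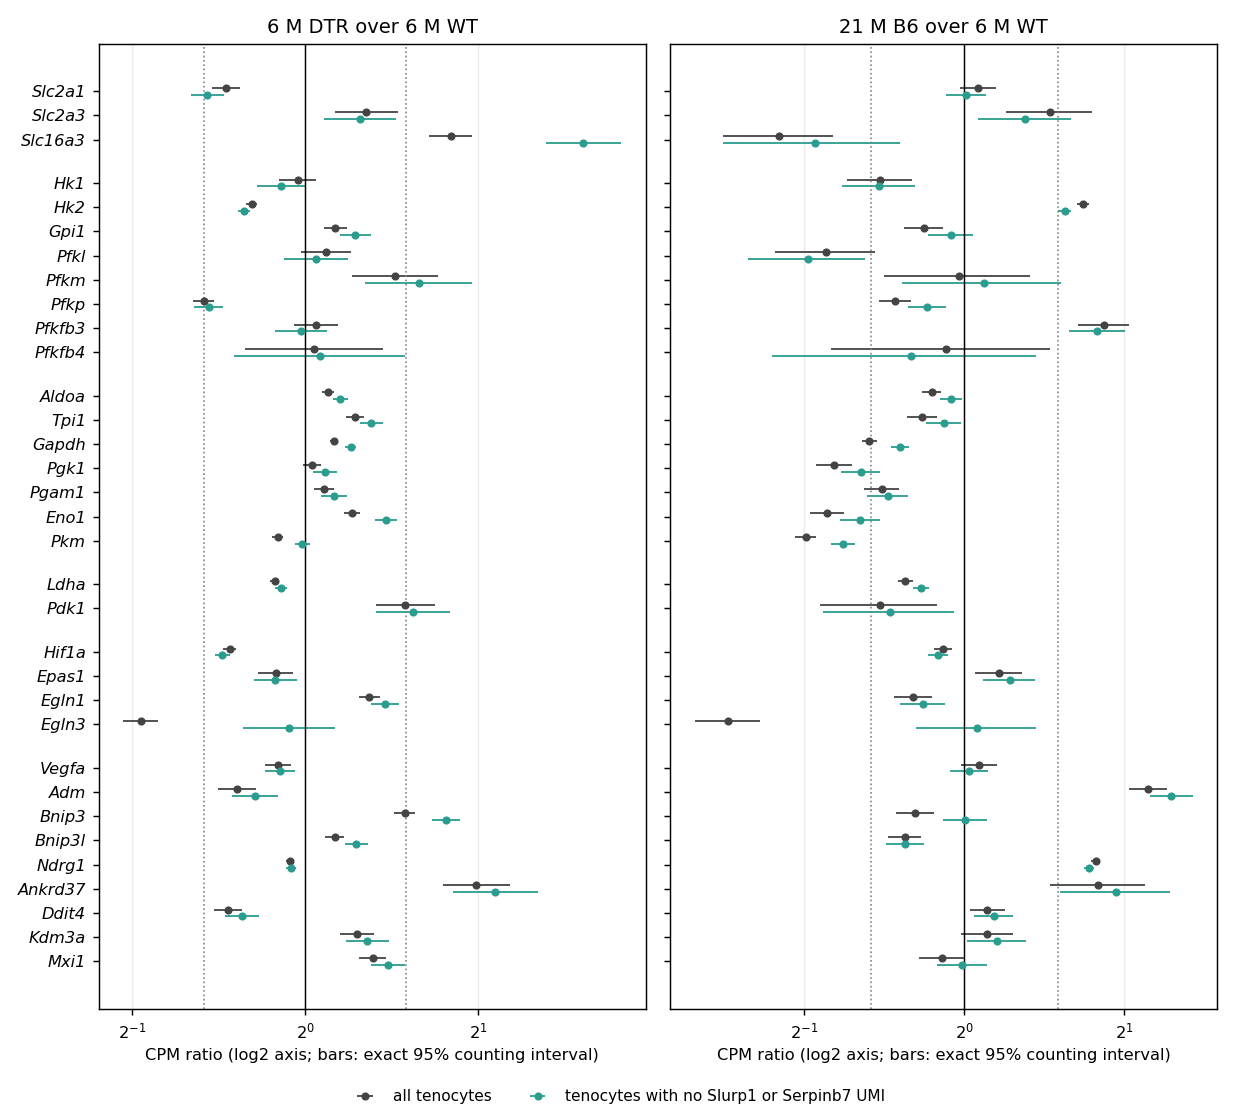
Ratio of CPM (log axis, with exact 95% intervals for counting error) of each gene in tenocytes of 6 M DTR and of 21 M B6 over 6 M WT, for all tenocytes and for tenocytes with no UMI of Slurp1 and Serpinb7, Car9 left out; dotted lines mark the 1.5-fold limits. Egln3 is at 0.518 and 0.360 in all tenocytes and near 1 in those with none, while in 21 M B6 the ratios of Adm (2.22 and 2.45) and Pkm (0.503 and 0.593) are on the same side of 1 in both. With no maximum on genes per barcode, a setting not drawn, Egln3 in all tenocytes of 21 M B6 was inside the limits.

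Other pathway genes gave ratios in both directions. In 21 M B6 tenocytes 4 of 39 other hypoxia genes were above the fold over 6 M WT and 7 below, with Angptl4 at 2.17, the clock repressor Bhlhe40 at 2.08 and Scd2 at 0.534, and of 8 pentose phosphate genes none was above and 3 were below. In 6 M DTR tenocytes 6 of 38 other hypoxia genes were above and 4 below, with Bhlhe41 at 2.44 and Angptl4 at 0.207.

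Signs of cell stress moved with the libraries, and their part in these ratios was not tested. The 10 heat shock genes summed to 2564, 2240 and 7590 CPM in tenocytes, and 8 of them were above the fold in 21 M B6 over 6 M WT. The 12 immediate early genes summed to 7668, 11579 and 14228 CPM. Median mitochondrial shares of tenocytes were 2.77%, 2.87% and 5.57%. Of 9 epitenon markers that reached 5 CPM 5 were above the fold in 21 M B6 tenocytes, although their sum was 296, 311 and 310 CPM, and 6 of 6 myofibre markers were above it. Above the fold in 6 M DTR tenocytes over 6 M WT were 4 of 5 macrophage markers, 5 of 5 myofibre markers and 4 of 4 haemoglobin genes that reached 5 CPM.

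Epitenon cells of 21 M B6 had 4 genes above the fold over 6 M WT, Hk2 (1.80), Epas1 (1.67), Adm (1.58) and Slc2a1 (1.54), and 2 below, Egln3 (0.420) and Eno1 (0.652), when 4.52% and 10.7% of all genes were. TMM scaling, which moves these log2 ratios by 0.29, gave 7 above and 1 below, with no share of all genes computed on that scale. Hk2 and Adm were thus higher, and Egln3 and Eno1 lower, in both stromal classes of this library. In tenocytes, however, Egln3 was inside the fold with no maximum on genes per barcode. Heat shock genes of the 21 M B6 epitenon cells summed to 8666 CPM against 3065 CPM. In 6 M DTR epitenon cells Slc2a3 (1.59) and Ankrd37 (1.54) were above the fold and Egln3 (0.479) was below it, when 2.10% and 4.45% of all genes were. Egln3 levels in epitenon cells were 65.6, 31.4 and 27.6 CPM, so that 6 M WT was the highest library in both classes.

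Macrophages of 6 M DTR had 5 genes above the fold over 6 M WT and none below, when 3.63% and 3.69% of all genes were. Vegfa led at 30.0 against 7.13 CPM (ratio 4.20, 3.23 to 5.53), followed by Ankrd37 (2.69), Ddit4 (1.86), Slc2a3 (1.68) and Bnip3 (1.62). In 21 M B6 macrophages 5 were above (Pfkfb3 3.60, Adm 2.25, Ddit4 2.02, Vegfa 1.86 and Slc2a3 1.63) and 8 below, when 9.37% and 9.85% of all genes were. Among the latter, Ndrg1 was at 281 against 532 CPM (0.528), opposite to its ratio in tenocytes, and Hif1a at 97.7 against 172 CPM (0.567). Other lists moved with the macrophages of these libraries, and their part in the ratios was not tested. Among macrophages of 6 M DTR 6 of 6 myofibre markers that reached 5 CPM were above the fold, with a median log2 ratio of 2.15, and 3 of 12 immediate early genes were. Among those of 21 M B6, all 6 myofibre markers, 7 of 10 heat shock genes and 4 of 6 epitenon markers were above and 6 of 7 tenocyte markers below, while none of the 8 macrophage markers passed the fold in either library. The opposite sides of Ndrg1 were not tested against each other, as each rests on 1 library a group.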

How the data were processed

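The authors deposited gene-by-barcode tables of UMI counts, whole numbers that were not normalized, from 3′ libraries (10x Genomics, version 3 chemistry). Cell Ranger is named as version 2.1.1 in the submitters' notes and 6.0.1 in the file headers. A barcode was kept if it had 1000 to 5000 genes and no more than 10% mitochondrial UMIs, and cells were gated on fixed markers. Raw counts were summed per library and class or bin and tested with edgeR 4.0.16 (quasi-likelihood test, TMM scaling, library as a block, Benjamini-Hochberg adjustment over all genes tested), with scripts checked on simulated data. Doublets were not removed in the main analysis. Scrublet's own threshold called under 0.5% of cells and did not work, so the 5% of cells with the highest scores were left out in an alternative. Between libraries, CPM ratios have exact 95% intervals that cover counting error only. Where p-values are given, the replicates are 3 libraries of different groups. DESeq2 1.42.0, library totals, stricter gates, a mitochondrial limit of 5%, thinned cells and libraries left out were alternatives. Values in every library are printed for genes with at least 20 CPM in tenocytes of a library, and of the other pathway lists up to 5 genes with the largest and 5 with the smallest change among those with at least 20 CPM. The genes, lists and bins were chosen with earlier results of these data known. The build behind the counts was not given in the sources used here. Promoter sequences are from RefSeq on GRCm38.p6.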

Additional observations from a re-analysis of the deposited data

Results flagged for a closer look

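Ldha stood out because its direction in high tenocytes against tenocytes with no UMI of Slurp1 and Serpinb7 was not shared by the libraries. The ratio of CPM was 1.13 for 6 M WT, 1.01 for 6 M DTR and 0.698 for 21 M B6, with exact 95% intervals of 1.10 to 1.16, 0.956 to 1.06 and 0.585 to 0.827 for counting error. The difference between the libraries was not tested, and the 21 M B6 value rests on 37 high cells.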

How the results depend on the processing

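Of the values of single genes under the alternatives, 770 stayed the same and 96 lost the call, none with a turned direction. To stay the same meant to keep direction and side of the threshold, except for Egln3 by bin, which was given no test. Its values counted as the same within the spread of the libraries. Egln3 moved beyond that spread in 2 settings (log2 changes of 4.48 with library totals and 3.79 in thinned bins). Of the ratios between libraries that were past the fold, 308 stayed past it under the alternatives, 50 did not and 2 reversed. Whether they stayed within their intervals was not counted. Slc16a3 in 21 M B6 over 6 M WT reversed, with a log2 ratio of 0.25 in high tenocytes. So did Egln3 in the same comparison, with 0.082 in tenocytes with no UMI of Slurp1 and Serpinb7.

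Apart from tenocytes with no UMI of Slurp1 and Serpinb7, shares of all genes were computed for the main setting only. In high tenocytes the genes called higher numbered 2 and those called lower 1 without the library block, and 4 to 8 and 5 to 6 with a library left out. High epitenon cells gave 7 to 10 higher and 8 lower with a library left out. Tenocytes against epitenon cells gave 4 to 10 higher and 1 to 3 lower, and against macrophages 9 to 11 higher and 4 to 12 lower, with a library left out. Against endothelial cells the genes called higher were 3 with library totals, 12 with no filter on low counts and 4 to 8 with a library left out.

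With a fold of 2, the counts above and below were 0 and 0 in 6 M DTR tenocytes over 6 M WT. Tenocytes of 21 M B6 gave 1 and 2 over 6 M WT, and 2 and 3 over 6 M DTR. Epitenon cells of 6 M DTR and of 21 M B6 each gave 0 above and 1 below (Egln3). Macrophages gave 2 above in 6 M DTR, and 3 and 0 in 21 M B6. TMM scaling gave 8 above and 4 below in 21 M B6 tenocytes over 6 M DTR, and 7 and 1 in 21 M B6 epitenon cells. In 6 M DTR tenocytes, those with no UMI gave 5 above and 0 below. Those of the high bin gave 5 below (Adm, Ddit4, Egln3, Hk2 and Vegfa). Female cells gave 1 below (Ddit4, neither Egln3 nor Pfkp), and no gene maximum gave 1 below (Egln3). In 21 M B6 tenocytes over 6 M WT, male cells gave 3 above and the high bin 2, and no gene maximum gave 5 below (neither Egln3 nor Gapdh). The stricter gate gave 1 above in 6 M DTR epitenon cells and 3 above in 21 M B6 macrophages, and the mitochondrial limit of 5% gave 5 below in the latter. Apart from settings that use fewer cells or another threshold by construction, the cause was not tested. Low counts limit Car9, Pfkm, Pfkfb4 and all genes in the 37 high tenocytes of 21 M B6. No paired analysis was possible because each group has 1 library, as far as comparisons between groups go; comparisons of classes and bins within libraries did use the library as a block.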
